A study of Homo sapiens with 24 samples.

Results

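SLBP, the stem-loop binding protein, was profiled in 293T cells (a human embryonic kidney line) by eCLIP at 40 U of RNase I and set against an IgG isotype control prepared at the same amount of RNase I. The 3 peak lists of this comparison were taken by sample title, and all of their peaks were used: 23034 in SLBP replicate 1, 18349 in SLBP replicate 2 and 28361 in IgG, or 69744 of the 269336 peaks in the 7 lists analysed. In eCLIP, protein is crosslinked to RNA in living cells, RNA is trimmed with RNase I, the complexes are precipitated with an antibody, and the recovered fragments are sequenced beside a size-matched input that skipped the antibody. All 3 libraries came from 293T cells irradiated at 254 nm and 400 mJ/cm2, and each had an input of its own; they differed in the antibody, which was an anti-SLBP antibody (MBL) in 2 libraries and the isotype control (Thermo Fisher) in 1.

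SLBP recognises a short stem-loop that closes the mRNAs of replication-dependent histone genes on their 3′ side in place of a poly(A) tail, and it takes part in their processing, export, translation and decay. Most of these genes lie in a few dense clusters. An isotype control antibody has no intended target, so what it recovers is the background of the procedure. The comparison asked what the SLBP antibody adds to that background inside and outside histone genes. Histone genes were represented by 4 hg19 windows set from general knowledge of where the clusters lie: HIST1 (chr6:26000001-28000000), HIST2 (chr1:149700001-149900000), HIST3 (chr1:228600001-228700000) and HIST4 (chr12:14900001-14950000). These windows were not checked against an hg19 annotation, and no single histone gene was assigned to a peak.

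Every value below is the authors' log2 of immunoprecipitation over that library's own input at a peak, and a peak was called enriched when it reached log2 3 (8-fold) and a −log10 p of 5. Read depths are not given in the lists, so the depth behind a single fold is unknown. With 2 SLBP libraries against 1 IgG library there are 3 ways to assign the labels, so no permutation test could reach p = 0.05, and the values are given side by side with no test. Nothing in the labels says that the 2 SLBP libraries came from separate cultures, and the protocol allows replicates to be barcoded and pooled part of the way, so the spread between them may be technical. Whether the authors' scaling makes folds of different lists comparable is not stated.

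Inside the histone windows SLBP peaks stood far above input and IgG peaks did not. SLBP replicate 1 had 267 peaks there with a median log2 of 5.63, SLBP replicate 2 had 231 with a median of 7.10, and IgG had 86 with a median of 0.67. Enriched peaks made up 233 of the 267 (87.3%) and 201 of the 231 (87.0%) in SLBP. None of the 86 IgG peaks was enriched, which leaves an upper exact 95% limit of 4.20% by counting error alone. Over all positions the share of enriched peaks was 1.23% in SLBP replicate 1, 1.27% in SLBP replicate 2 and 0.18% in IgG. The windows held 82.0% and 86.3% of all enriched SLBP peaks but 1.16% and 1.26% of all SLBP peaks, against 0.303% of the IgG peaks.

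Outside the windows the share of enriched peaks in IgG lay between those of the SLBP libraries. SLBP replicate 1 had 51 enriched peaks of 22767, or 0.224% (exact 95% interval 0.167 to 0.294). SLBP replicate 2 had 32 of 18118, or 0.177% (0.121 to 0.249), and IgG had 51 of 28275, or 0.180% (0.134 to 0.237). The intervals overlapped. They cover counting error only and treat peaks as independent, which makes them too narrow: merging touching enriched peaks left 34, 19 and 40 sites. Median log2 over input outside was 1.57, 1.46 and 1.31 in the same order, and the median peak was 32 nt wide in each list. Peaks below input made up 7.10%, 9.57% and 10.7%.

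The fold limit alone was reached by many more peaks outside: 1417 in SLBP replicate 1, 1155 in SLBP replicate 2 and 1164 in IgG. As shares of the outside peaks these were 6.22%, 6.37% and 4.12%, so SLBP was somewhat higher by fold alone. Nearly all of these peaks missed the p limit, namely 1366, 1123 and 1113. The share also varied between libraries of 1 antibody: it was 0.414% and 13.3% in the 2 SLBP lists made at 5 U of RNase I.

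**Figure D1:**
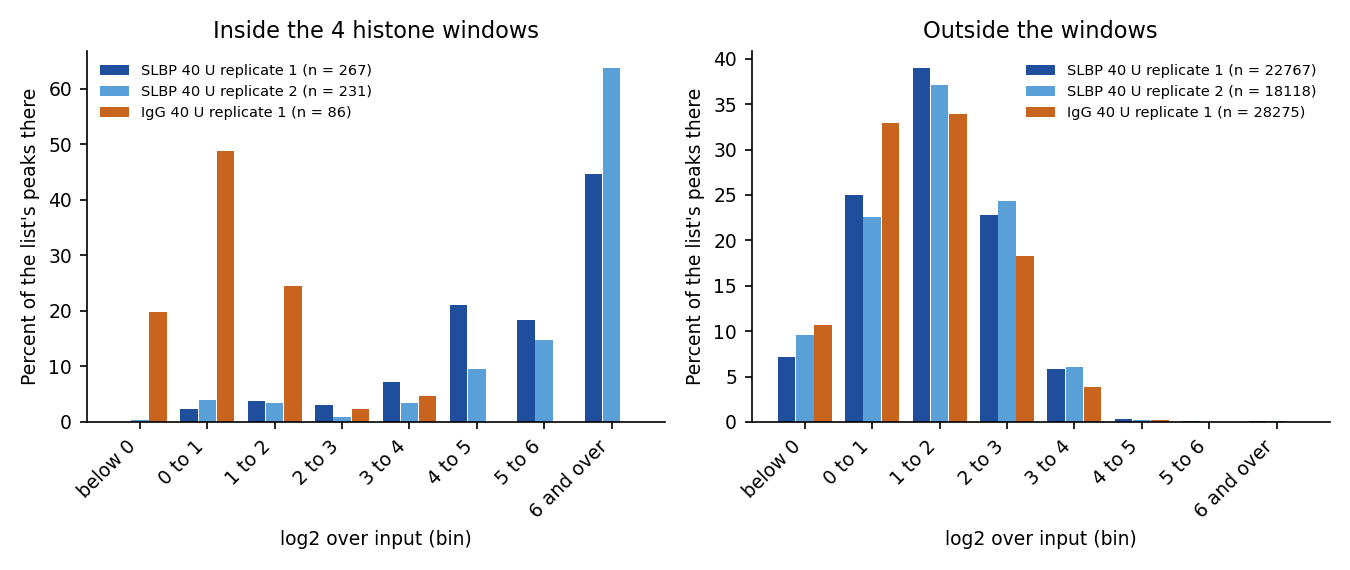
Share of each list's peaks (percent, bars) by log2 over input, inside the 4 histone windows (left) and outside them (right); n gives the peaks behind each set of bars. Inside, the SLBP bars pile up at log2 6 and over while the IgG bars lie mostly from 0 to 2; outside, the bars of the 3 lists lie over the same bins, with medians of 1.57, 1.46 and 1.31.

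HIST1, the largest cluster, held most of the signal. It contained 216 and 175 SLBP peaks, of which 197 and 163 were enriched, with medians of 5.94 and 7.39. IgG had 56 peaks there with a median of 0.41 and none enriched. All enriched SLBP peaks of HIST1 lay in 3 stretches of the window (chr6:26000001-26300000, chr6:27050001-27150000 and chr6:27750001-27900000). Between these stretches the lists held 9, 5 and 9 peaks with medians of 1.83, 1.04 and 1.31 in SLBP replicate 1, SLBP replicate 2 and IgG, and none was enriched in any list. Within HIST1 the enriched SLBP signal was thus limited to these stretches.

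HIST2 had 36 and 38 SLBP peaks, 28 and 29 of them enriched, with medians of 5.24 and 5.72, beside 19 IgG peaks with a median of 1.14. HIST3 had 9 and 10 SLBP peaks with only 3 and 2 enriched and medians of 2.24 and 0.67, beside 6 IgG peaks with a median of 0.51. HIST4 had 6 and 8 SLBP peaks, 5 and 7 of them enriched, with medians of 4.55 and 5.86, beside 5 IgG peaks with a median of 0.99. In HIST3 the median says little about the top, since the highest peaks there reached 9.03 and 9.48. No IgG peak was enriched in HIST2, HIST3 or HIST4.

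The 2 SLBP libraries pointed to the same places inside the windows. Stretches covered by enriched peaks of both libraries on the same strand, joined when at most 1 kb apart, gave 53 loci: 46 inside the windows and 7 outside. When only SLBP replicate 2 was used, whether or not replicate 1 was enriched there, 46 loci lay inside and 15 outside. With only SLBP replicate 1 used in the same way, the counts were 48 and 29. Of the 46 inside loci shared by both libraries, 34 lay in HIST1, 9 in HIST2, 2 in HIST3 and 1 in HIST4. On the plus strand there were 24 and on the minus strand 22. The 3 HIST1 stretches held 21, 4 and 9. Neighbouring loci lay at most 2 kb apart in 16 cases, and 11 of these pairs were on opposite strands. None of the 3 lists of this comparison had a peak on the strand opposite to any of the 46.

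An IgG peak touched 21 of the 46 loci (45.7%), and none of these IgG peaks was enriched. The highest IgG log2 in a locus ran from −0.34 to 2.43 with a median of 0.93, and it was below input at 4 loci. The weaker SLBP library was above IgG by 5.45 to 10.99 at these loci, with a median of 7.41. Each list was read at its own highest peak in the locus, so the values need not cover the same nucleotides. The loci were selected for enrichment in both SLBP libraries, with no rule on IgG. This largely fixes that SLBP lies above IgG, so the differences are a description. Loci with an IgG peak spanned a median of 360 nt and those without one 78 nt. The region of each locus where the weaker SLBP library was highest is called the top region here. When the search was limited to it, the share with an IgG peak fell to 21.7% (10 of 46). At 11 further loci IgG had a peak only elsewhere in the locus.

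The highest locus by its weaker library was chr6:27806746-27806886 on the plus strand, with 10.81 in SLBP replicate 1, 11.18 in SLBP replicate 2 and −0.17 in IgG. The next was chr6:26055972-26056085 on the minus strand, with 9.71, 10.38 and 2.43, the highest IgG value of any locus inside the windows. It was followed by chr6:26123697-26124134 (minus) with 9.57, 10.04 and 0.31. In each of these the SLBP libraries lay within 0.67 of each other and the control more than 7 below the weaker of them. In the first and the third locus IgG had no peak in the top region, so its value comes from elsewhere in the locus.

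At chr6:27114142-27114358 (minus) the values were 9.50, 11.12 and 1.31, and at chr6:27792177-27792244 (plus) 9.29, 11.001 and 1.77. At chr6:27101125-27101313 (plus) IgG was below input, at −0.34, beside 9.05 and 9.84. IgG thus had a peak at 6 of the 10 loci that led by the weaker SLBP library. The other 4 had none: chr6:26188941-26189009 (minus) with 9.23 and 10.14, chr6:26157255-26157341 (plus) with 9.13 and 11.54, chr6:26250375-26250475 (minus) with 9.74 and 9.10, and chr1:228646199-228646256 (plus) in HIST3 with 9.03 and 9.48.

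Among the 5 loci with the most IgG signal were 2 more in HIST1. At chr6:26285355-26285699 (minus) SLBP read 9.09 and 8.85 and IgG 1.50. At chr6:27114917-27115303 (plus) SLBP read 6.93 and 8.55 and IgG 1.48, and this locus had the smallest distance of all 21 between the weaker SLBP library and IgG, 5.45. Over the 21 loci, Pearson's r between IgG and the weaker SLBP library was 0.06; the loci share libraries and inputs and are not replicates.

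The SLBP libraries differed from each other in height. SLBP replicate 2 was higher at 32 of the 46 loci and SLBP replicate 1 at 14, the median absolute gap was 0.81, and r across the loci was 0.72. The largest gap, 4.03, was at chr6:26204872-26205247 (plus), with 7.87 in SLBP replicate 1, 11.89 in SLBP replicate 2 and 1.24 in IgG. Gaps above 2 were also found at chr6:27775992-27776407 (plus) with 7.52 and 9.97, at chr6:26157255-26157341, at chr1:228645078-228645152 (minus, HIST3) with 6.99 and 9.33, and at chr1:149815022-149815084 (plus, HIST2) with 7.57 and 5.46. IgG had a peak of 0.05 at the first of these and none at the other 3. The HIST4 locus, chr12:14923654-14924013 (minus), read 6.58, 8.61 and 0.73.

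**Figure D2:**
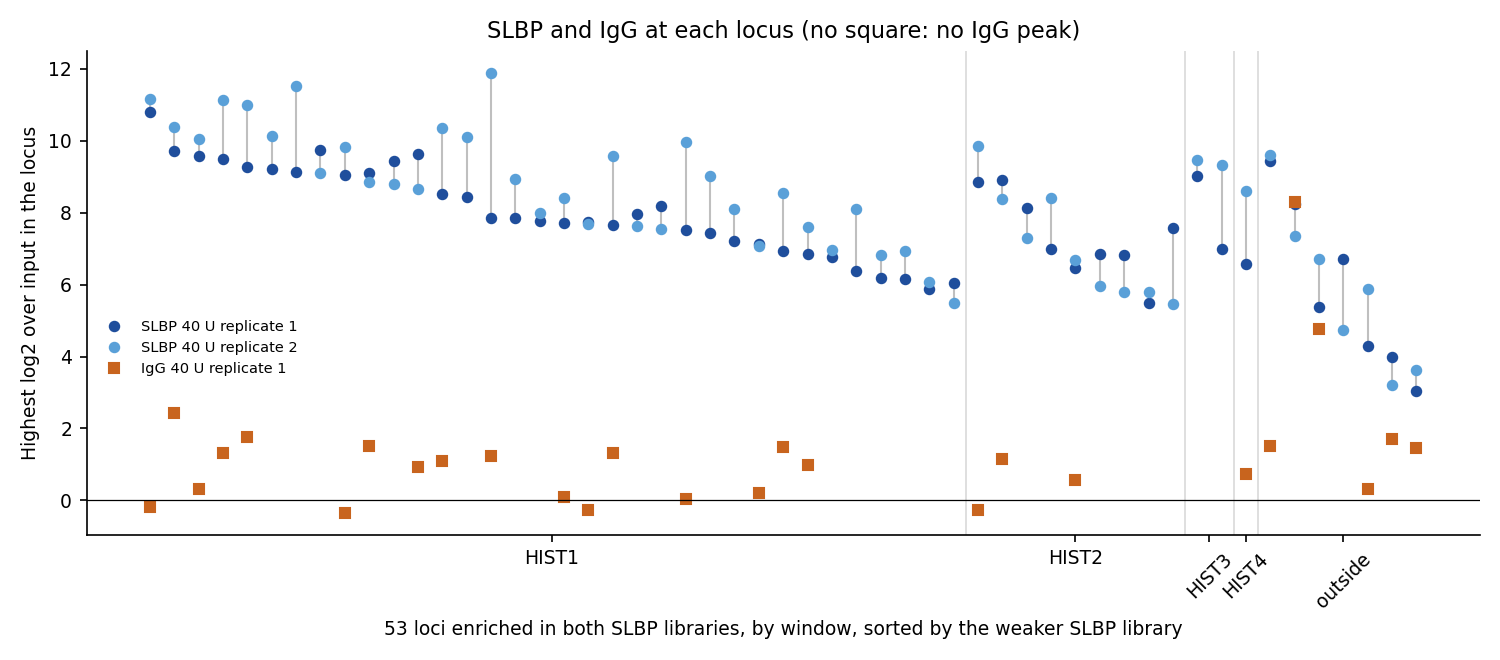
Highest log2 over input at each of the 53 loci (x axis, grouped by window and sorted by the weaker SLBP library) in SLBP replicate 1 and replicate 2 (circles joined by a line) and IgG (squares, absent where IgG had no peak). Inside the windows all squares lie at or below 2.43 and all circles at or above 5.46; among the 7 outside loci, 2 have squares at 4.77 and 8.29.

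Within a histone locus the signal had a direction. Of the 46 loci, 25 held several regions, and in 24 of these the top region was the one farthest towards the 3′ side of the strand. The top region was chosen by its height, but its place within the locus was not. In these 25, the median top region read 7.85 in SLBP replicate 1 and 8.79 in SLBP replicate 2 and the region farthest to the 5′ side 5.37 and 5.46, an order that the choice of the top region largely sets. Peaks more than 50 nt away from the centre of a top region, and within 600 nt, lay on its 5′ side in 110 cases and on its 3′ side in 10 in SLBP replicate 1. The same counts were 69 and 11 in SLBP replicate 2. Peaks away from the top region thus lay mostly on its 5′ side in both SLBP libraries.

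IgG peaks counted over the same distances from a centre also lay mostly on the 5′ side, in 46 cases against 1 on the 3′ side. The 46 fell near 27 loci, while an IgG peak touched 21 loci, so some lay beyond the ends of a locus. A further 9 IgG peaks were centred within 50 nt of the centre of a top region; the 110 and 120 SLBP peaks centred there follow from how the region was chosen. Upstream IgG peaks had a median log2 of 0.31, beside 4.82 and 5.43 for upstream SLBP peaks. The centre of IgG peaks was a median of 243 nt on the 5′ side, while that of SLBP peaks was 40.2 and 19.0 nt on the same side. The SLBP medians include the peaks centred within 50 nt, so the choice of the region largely sets this order.

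**Figure D3:**
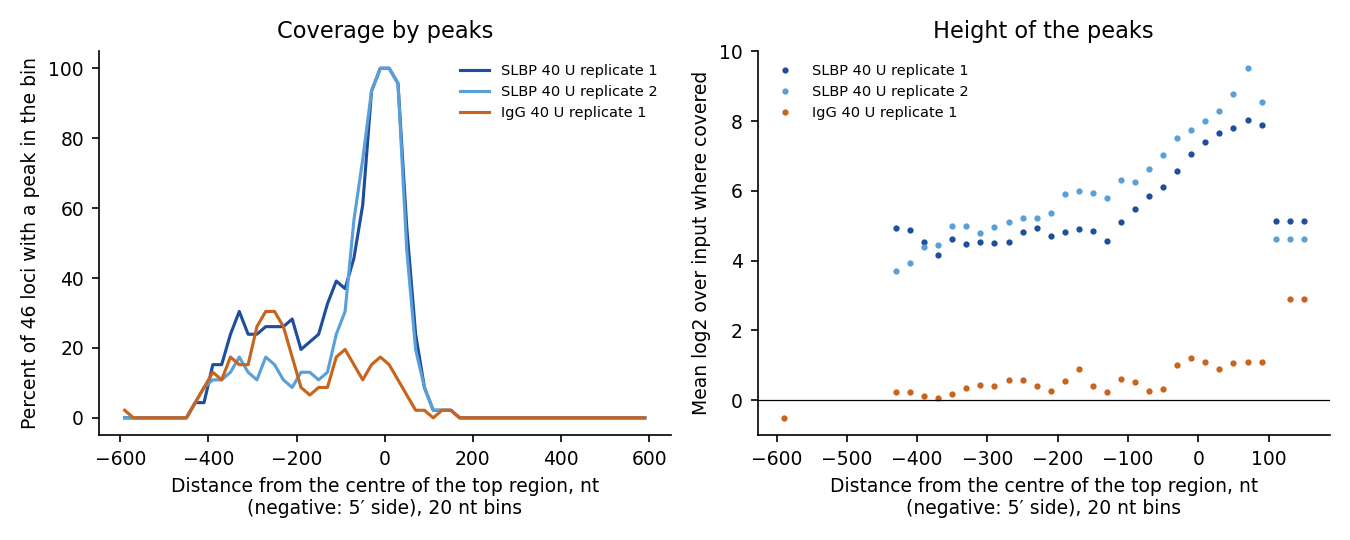
Left, percent of the 46 inside loci with a peak in each 20 nt bin around the centre of the top region; right, mean log2 over input where a bin was covered; the x axis gives the distance in nt along the strand, negative on the 5′ side. SLBP coverage of 100% at the centre follows from the choice of the region; IgG coverage there is 17.4%, with more farther to the 5′ side; SLBP heights climb towards the 3′ side, and bins beyond 100 nt on that side rest on at most 1 locus in each list.

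Where SLBP and IgG peaks covered the same nucleotides, the distance depended on the place. Inside the windows SLBP replicate 1 read a median of 4.95 and IgG 0.45 over 1893 shared nt, and SLBP replicate 2 read 5.85 and IgG 0.65 over 1389 nt. The median difference was 4.57 and 5.44, a mean of 5.01 ± 0.61 (SD, n = 2 SLBP libraries against 1 IgG library). Outside, SLBP replicate 1 read 0.83 and IgG 0.44 over 186039 nt, and SLBP replicate 2 read 0.68 and IgG 0.41 over 172124 nt. The median difference there was 0.37 and 0.21, a mean of 0.29 ± 0.11 (SD, n = 2).

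Nucleotides covered in all 3 lists allowed the libraries to be compared at once. Inside the windows there were 1247 of them, both SLBP libraries were above IgG at 100%, and both were at least 3 above it at 97.9%. Outside there were 99034, both SLBP libraries were above IgG at 47.5% and both below it at 24.3%, and both were at least 3 above at 0.152%, which is 151 nt. IgG was thus the lowest of the 3 outside more often than the highest. The median difference of mean SLBP from IgG was 5.53 inside and 0.25 outside. At single nucleotides the SLBP libraries differed from each other by a median of 0.81 inside and 0.52 outside, regardless of sign. Whether the shift outside exceeds what a second IgG library would give was not tested.

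Sharing of peaks outside the windows did not separate a second SLBP library from the control. SLBP replicate 1 peaks touched an SLBP replicate 2 peak in 22.9% of cases and an IgG peak in 26.8%. SLBP replicate 2 peaks touched an SLBP replicate 1 peak in 28.4% and an IgG peak in 30.6%. The IgG list is the longest of the 3, and what its length adds to these shares was not tested. Inside the windows the order was the other way round: 73.8% of SLBP replicate 1 peaks touched SLBP replicate 2 and 34.1% touched IgG, and for SLBP replicate 2 the shares were 85.7% and 30.3%.

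Sharing outside also depended on height. SLBP peaks below input touched an IgG peak in 74.7% and 74.8% of cases, and those at log2 2 to 3 in 11.8% and 12.8%. At log2 6 and over, all 12 outside peaks of SLBP replicate 1 and all 16 of SLBP replicate 2 touched a peak of the other SLBP library, while 16.7% and 37.5% touched IgG. Of these tallest peaks, 9 of 12 and 13 of 16 lay in the H2AFX window described next.

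**Figure D4:**
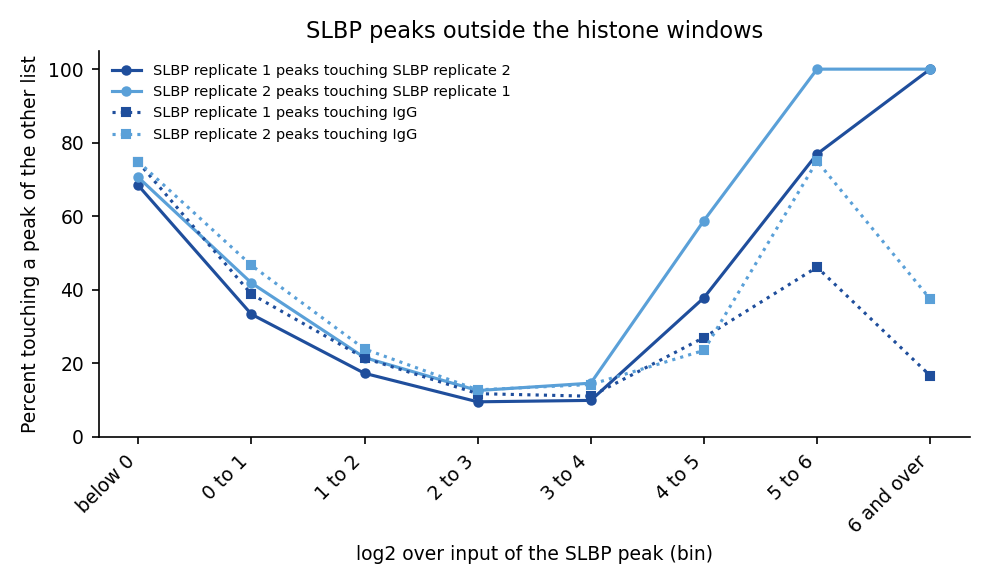
Percent of SLBP peaks outside the histone windows that touched a peak of the other SLBP library (solid lines, circles) or of IgG (dotted lines, squares), by log2 over input of the SLBP peak. The 4 lines fall together from 68.4% to 74.8% below input to 14.6% or less at log2 2 to 4; from log2 4 upwards the solid lines lie above the dotted ones, in bins of 34 and 74 peaks at log2 4 to 5 and of 4 to 16 peaks above that.

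The highest locus outside the windows was chr11:118965604-118966108 on the minus strand, with 9.43 in SLBP replicate 1, 9.59 in SLBP replicate 2 and 1.50 in IgG. It lies in a window set for H2AFX, which encodes the histone variant H2AX and whose mRNA can end in the histone stem-loop or in a poly(A) tail. This window held 16 and 14 SLBP peaks, 15 and 13 of them enriched, with medians of 6.16 and 6.64, and 6 IgG peaks with a median of 0.59 and none enriched. Its SLBP values lay within the range of the loci inside the histone windows. Like the other windows, it was not checked against an hg19 annotation. Without it, the share of enriched peaks outside was 0.158% (36 of 22751) in SLBP replicate 1 and 0.105% (19 of 18104) in SLBP replicate 2, both under the IgG share of 0.180%. The exact 95% intervals of 0.111 to 0.219 and 0.0632 to 0.164 overlapped that of IgG. These intervals also treat peaks as independent, while the enriched SLBP peaks merged into 28 and 14 sites.

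The only outside locus of the 7 without an IgG peak was chr6:25727533-25727572 (plus), with 6.70 and 4.74 in SLBP. It lies 272 kb before the start of the HIST1 window. In the RefSeq gene order of GRCh38.p14 the HIST1 cluster opens with H2AC1 and H2BC1, genes for an H2A and an H2B histone, which are separated from the next active histone gene by members of the SLC17A family and others. Whether this peak lies on a histone gene could not be determined without an hg19 annotation. IgG had no peak at all in chr6:25700001-26000000, against 4 and 2 SLBP peaks.

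At 2 outside loci IgG was enriched too. At chr17:18965404-18965437 (plus) SLBP read 8.24 and 7.35 and IgG 8.29, so IgG exceeded the weaker SLBP library by 0.94. At chr6:31958260-31958279 (plus) SLBP read 5.37 and 6.71 and IgG 4.77. The RBFOX2 libraries of the series, made with an antibody against a splicing factor, were enriched at both as well, with 6.31 and 3.52 at the first and 3.87 and 4.76 at the second. Neither place was particular to the SLBP antibody in these lists.

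The remaining 3 outside loci were lower. At chr6:10887836-10887860 (plus) SLBP read 4.30 and 5.89 and IgG 0.31. At chr2:133012652-133012701 (minus) the values were 3.998, 3.21 and 1.71, and at chr15:96826150-96826169 (minus) 3.03, 3.63 and 1.45. None of these 3 was enriched in the SLBP lists made at 5 U of RNase I, where the values ran from −1.42 to 2.50. Of all 7 outside loci, 4 were enriched in 5 U replicate 3 and 2 in 5 U replicate 4. The locus in the H2AFX window was enriched in both, with 7.17 and 8.21. The 46 loci inside the windows were enriched in 43 and 42 cases at 5 U, and 41 in both. RBFOX2 had peaks at 25 and 30 of the 46 loci, with medians of −0.63 and −1.22 and none enriched. Over all peaks of a list, 1.70% and 2.33% were enriched at 5 U and 7.95% and 7.66% in RBFOX2.

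Enriched SLBP peaks outside were shared by both libraries in part. Inside the windows, 79.8% of enriched SLBP replicate 1 peaks and 93.0% of enriched SLBP replicate 2 peaks touched an enriched peak of the other library, and outside 49.0% and 71.9%. Of the 51 in SLBP replicate 1, 25 touched an enriched SLBP replicate 2 peak, 15 touched only a peak that was not enriched and 11 touched none. Of the 32 in SLBP replicate 2, the counts were 23, 7 and 2. The 5 highest peaks enriched in a single SLBP library included 2 neighbours at chr14:50329528-50329564 and chr14:50329565-50329567 (minus), with 5.44 and 5.55 in SLBP replicate 1, no peak in SLBP replicate 2, and enriched IgG peaks of up to 6.40 at the former and 4.55 at the latter. The other 3 had no IgG peak and passed the fold limit but not the p limit in the second SLBP library.

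These 3 were chr1:149400252-149400310 (minus) with 5.24 in SLBP replicate 1 and 3.63 in SLBP replicate 2, chr18:12411622-12411682 (plus) with 5.24 and 4.21, and chrX:123095893-123095942 (plus) with 3.36 and 5.21. At 5 U of RNase I the first read 3.98 in replicate 3, the second 2.47 in replicate 3 and 3.58 in replicate 4, and the third 1.66 in replicate 3. Replicate 4 had no peak at the first and the third. With the fold limit alone, 37 loci outside were shared by both SLBP libraries, and 12 of them had an IgG peak. At 3 of the 37 an IgG peak reached the fold limit too. Over all outside peaks, 26.8% in SLBP replicate 1 and 30.6% in SLBP replicate 2 touched an IgG peak.

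Of the 51 enriched IgG peaks, none lay inside the windows, 26 touched no SLBP peak of either library, and 8 touched an enriched SLBP peak. These 8 fell in 4 places: 3 at chr14:50329528-50329567, 1 at the chromosome 17 locus, 1 at chr6:31958259-31958281, and 3 at chr2:230045633-230045696 (minus), where IgG reached 4.03 beside 3.48 in SLBP replicate 1 and 2.76, not enriched, in SLBP replicate 2. Places where IgG and at least 1 SLBP library were enriched thus numbered 4, and at 2 of them both SLBP libraries were enriched. Of the enriched IgG peaks, 47.1% touched a peak of SLBP replicate 1 and 33.3% a peak of SLBP replicate 2. Among all IgG peaks outside the windows these shares were 21.8% and 20.1%.

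Inside the windows, IgG peaks that touched an SLBP locus were no higher than the others. The 37 that touched one had a median log2 of 0.53 (10 below input) and the 49 that did not had a median of 0.83 (7 below input), while IgG peaks outside the windows had a median of 1.31. Peaks on the mitochondrial genome numbered 138, 113 and 157 in SLBP replicate 1, SLBP replicate 2 and IgG with medians of 0.06, −0.31 and −0.24.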

How the data were processed

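Each library had its own deposited peak list with hg19 intervals and strand. The deposited −log10 p (ceiling 400) and log2 over the paired input are the authors' values; both units were read from the values, as the lists have no header. Per the submitters' processing notes, the tools were STAR, cutadapt, SAMtools, Picard and GATK and the build hg19; the peak caller is, like the input scaling, not given in the sources used here. Intervals were compared with Python 3.11.15 and pandas 2.3.3, on strand, with an overlap of at least 1 nt. A peak belonged to a window by its midpoint, and its log2 was compared over shared nucleotides. The interval steps were tested on simulated intervals. Coordinates count from 1. Log2 values come in steps: 1422, 1316 and 1870 distinct values occurred outside the windows in SLBP replicates 1 and 2 and IgG.

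Loci named are the 10 highest inside by the weaker SLBP library, the 5 with most IgG, the 5 with the largest gap between SLBP libraries, all outside loci, the 5 highest peaks enriched in 1 SLBP library outside, and all enriched IgG peaks on enriched SLBP peaks. The windows, limits and rules were chosen with earlier results of these data known. No hg19 sequence was used here, so no sequence is printed. Alternatives covered the limits, joining distance, overlap, strand, windows, merging of touching peaks and each SLBP library left out.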

Additional observations from a re-analysis of the deposited data

How the results depend on the processing

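Of 79 recomputed values, 67 stayed within the spread between SLBP libraries, within the binomial interval of a share or within 1.5 times a count, 12 moved further and none changed sign. For medians and shares of peaks, each single library always lies within the SD of 2, so leaving out 1 SLBP library could not count as a move. The binomial interval for the outside loci rests on 7 loci and is wide. The 67 are therefore no measure of robustness. Inside the windows the number of loci ranged from 46 to 57. Outside, the 7 loci became 4 with stricter limits (−log10 p 10, log2 4), 17 with log2 2 and 17 with −log10 p 3. When only 1 SLBP library was used, whether or not the other was enriched there, they were 15 (without SLBP replicate 1) and 29 (without SLBP replicate 2). The share of outside loci with an IgG peak, 85.7%, became 100% with stricter limits, 35.3% with the looser p limit, and 100% when HIST1 was started at chr6:25700001 and H2AFX was counted as inside, an alternative chosen after seeing the data that left 5 loci outside. The share of inside loci with an IgG peak, 45.7%, became 21.7% when the top region alone was searched, also chosen after seeing the data.

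Asking for an overlap of at least 50% of the shorter interval lowered the share of inside SLBP peaks touching IgG from 32.2% to 26.31%. Merging touching peaks changed the inside median log2 from 6.37 to 5.19 and the inside median width from 28 to 44.5 nt. Shifts of a median width by under 1 nt were counted as within the spread, since widths are whole nt; this rule was added after seeing the data and covers 2 values, the outside width of 32.5 nt after merging (32 before) and the inside width with the narrow HIST1 stretches. Without SLBP replicate 1 and without SLBP replicate 2, the share of outside loci with an IgG peak was 66.7% and 48.3%, and the median difference from IgG was 5.44 and 4.57 inside and 0.21 and 0.37 outside. No paired analysis was possible because IgG had 1 library and no result came from a test.

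The lists give no read counts, so what depth contributes to a missing IgG peak was not tested. A missing peak is not a measured zero. The control's own spread cannot be estimated from 1 library.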
